A study of Mus musculus with 6 samples.

Results

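Accessible chromatin was described at 7 oncofetal genes, Hmga1, Hmga2, Lin28a, Lin28b, Igf2bp1, Igf2bp2 and Igf2bp3. An interval belonged to a gene when it overlapped, by at least 1 bp, the gene's span on the mouse genome GRCm38.p6 extended by 100 kb on both sides. Of the 323483 intervals of the experiment, 493 (0.152%) met this rule. They were 141 at Hmga2, 48 at Hmga1, 57 at Igf2bp1, 85 at Igf2bp2, 87 at Igf2bp3, 41 at Lin28a and 34 at Lin28b. The genes were chosen by name, and Hmga2 was selected on its high number of intervals per length in this same set, so its density is a description and was not tested.

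Oncofetal genes are active in the embryo and in many tumours and are mostly silent in adult tissue. Hmga1 and Hmga2 encode small chromatin proteins that bind AT-rich DNA in the minor groove through AT-hooks. Lin28a and Lin28b encode RNA-binding proteins that block maturation of let-7 microRNAs, and let-7 in turn represses Lin28, Hmga2 and Igf2bp mRNAs. Igf2bp1, Igf2bp2 and Igf2bp3 encode RNA-binding proteins that stabilise, localise or regulate the translation of mRNAs, Igf2 and Myc among them. In mouse myoblasts, Hmga2 is known to act upstream of Igf2bp2 in proliferation and myogenesis.

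The assay was ATAC-seq, which tags open DNA by transposase insertion, on mouse embryonic fibroblasts of a cross of M2-rtTA with TetO-Myf6, heterozygous for both alleles in every group. Myf6 belongs to the basic helix-loop-helix factors that drive skeletal muscle formation, and the reverse transactivator switches the TetO transgene on in the presence of doxycycline. One group of 2 libraries received doxycycline (2 µg/mL) with forskolin (5 µM), RepSox (5 µM) and CHIR99021 (3 µM). These compounds activate adenylate cyclase, inhibit the TGF-beta type I receptor and inhibit glycogen synthase kinase 3. A second group of 2 libraries received doxycycline alone at the same dose, and the 2 libraries of the medium group received neither doxycycline nor the compounds. All 3 groups were kept for 24 h in iMPC medium with 10 ng/mL bFGF. The labels do not say which cells of the embryo the fibroblasts derived from, nor whether libraries of 1 group are separate cultures.

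The table analysed here joins all 6 libraries into 1 set of intervals, with a position for each and no value for a library or a group. The 3 groups could therefore not be compared, read depth at the intervals is unknown, and values carry no error between replicates. An interval may stem from a single group, and a wide interval may join several peaks. For the fibroblast label, all 8 fibroblast marker genes had an interval within 1 kb of a gene end (Col1a1, Col1a2, Thy1, Pdgfra, Vim, Prrx1, Twist1 and Fn1), against 74.7% of all protein-coding genes. So common a feature bears little on the label. Of 6 markers of other cell types, Epcam (1587 bp) and Cdh5 (651 bp) had one there, and Ptprc, Pecam1, Adgre1 and Krt5 had none.

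The let-7 microRNAs link these genes, and their mature sequences are shown because Hmga2, Lin28 and Igf2bp mRNAs are known targets through the shared seed. The 12 mouse genes on the let-7 list gave 9 distinct mature 5p sequences in RefSeq (GRCm38.p6). All 9 carried 1 seed, bases 2 to 8, which is in capitals.
mmu-let-7a-5p: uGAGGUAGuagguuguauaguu
mmu-let-7b-5p: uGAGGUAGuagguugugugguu
mmu-let-7c-5p: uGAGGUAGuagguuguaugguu
mmu-let-7d-5p: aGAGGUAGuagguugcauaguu
mmu-let-7e-5p: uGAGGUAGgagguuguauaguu
mmu-let-7f-5p: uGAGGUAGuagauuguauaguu
mmu-let-7g-5p: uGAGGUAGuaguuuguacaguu
mmu-let-7i-5p: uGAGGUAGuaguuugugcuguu
mmu-miR-98-5p: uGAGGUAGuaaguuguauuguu

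The let-7 hairpins were mostly outside intervals, as most sequence near them was: intervals covered a median of 11.4% of the windows of 100 kb on both sides of the hairpins. Mirlet7i, on chromosome 10 and 2509 kb above Hmga2, was the 1 hairpin of the 12 that lay inside an interval, chr10:122985566-122986616 (1051 bp). The hairpins of the cluster on chromosome 13 lay near an interval of 964 bp at 48538953 to 48539916, at 681 bp from Mirlet7a-1 and 1036 bp from Mirlet7f-1, and Mirlet7d lay 1769 bp from another of 102 bp. The largest distance was 3641 bp, at Mir98 inside Huwe1 on the X chromosome. Within 100 kb of the hairpins, density was highest at Mirlet7a-2 (31.0 intervals per 100 kb, inside the lncRNA gene Mir100hg) and Mirlet7i (27.0), and lowest at Mir98 and its neighbour Mirlet7f-2, with 18 intervals within 100 kb of either hairpin. Neighbouring hairpins share these windows, so they are not separate measurements. The median over the 12 was 20.5, against 17.8 over all 21883 protein-coding genes measured the same way.

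The 7 genes spanned a wide range of density. Hmga2 had 44.7 intervals per 100 kb of its extended span, Igf2bp2 27.9, Igf2bp3 26.3, Hmga1 23.2, Igf2bp1 22.9, Lin28a 18.99 and Lin28b 10.98. The median of the 7 was 23.2, against 17.8 over all protein-coding genes (quartiles 10.2 and 23.7). Density exceeded that overall median at 6 of the 7 genes, where 50.0% of all genes do so by definition, and Lin28b lay below it. By the share of sequence inside intervals the order was Hmga2 (20.3%), Hmga1 (15.1%), Igf2bp2 (12.1%), Igf2bp1 (11.2%), Igf2bp3 (10.8%), Lin28a (9.87%) and Lin28b (5.41%), against a median of 8.69% over all genes. Among the intervals listed, Hmga2 came first and Lin28b last by both measures, and the genes between them changed places. With no replicates, it cannot be said which neighbours in either order differ beyond error.

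**Figure D1:**
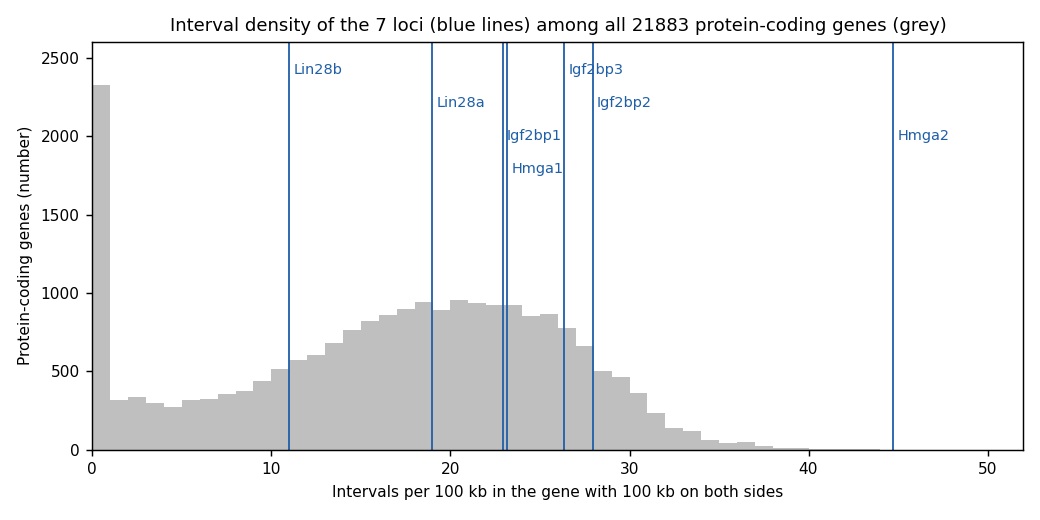
Histogram of the number of intervals per 100 kb (x axis) over the span of each protein-coding gene with 100 kb on both sides (y axis, number of genes), with the 7 oncofetal genes as blue lines. Hmga2 (44.7) stands at the far right of the 21883 genes, and Lin28b (10.98) lies left of the overall median of 17.8.

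Over the gene with 100 kb on both sides, Hmga2 had more intervals per 100 kb than any other protein-coding gene. Hmga2 lies on the minus strand of chromosome 10, from 120361268 to 120476469 (gene ID 15364, 115.2 kb). Of 21883 genes, Hmga2 alone reached 44.7 intervals per 100 kb (0.00457%), followed closely by Hoxa2 (44.0) and Septin9 (43.6). The rank depended on the window and on small intervals. Hmga2 ranked 5 with 50 kb on both sides, 8 with 200 kb, and 2 with intervals closer than 200 bp joined, a setting added after seeing the data. It ranked 43 with only intervals of at least 300 bp counted and 58 by the share of sequence covered. The density of Hmga2 is the value that brought it onto the list.

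The intervals of Hmga2 were concentrated over the gene itself. The gene held 85 of the 141 intervals (60.3%) in 36.5% of the extended span, which is 73.8 per 100 kb over the gene and 28.0 per 100 kb over the flanks. Of the flanking intervals, 32 lay beyond the 3' end and 24 upstream of the start, and no other protein-coding gene overlaps the extended span, so all 56 lay outside coding genes. Intervals covered 33.4 kb of the gene, or 29.0%. Among the 3535 protein-coding genes of 0.5 to 2 times its length, Hmga2 had the highest density over the gene, where the median was 18.6 per 100 kb. With only intervals of at least 300 bp counted, a setting added after seeing the data, Hmga2 ranked 2 among them. With all intervals counted, the nearest to Hmga2 in density over the gene, all below it, were Fn1 (64.9 per 100 kb), Spred1 (60.4), Tnc (56.2), Lamb1 (55.8) and Hspg2 (55.0). This likeness is in density alone. Fn1, Tnc, Lamb1 and Hspg2 encode the matrix proteins fibronectin, tenascin C, laminin beta 1 and perlecan, and Spred1 encodes an inhibitor of Ras signalling to MAP kinase.

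High density ran along nearly the whole of Hmga2. The first 10 kb from the start held 3 interval midpoints, and each of the following bins of 10 kb within the gene held 6 to 10. The 10 bins upstream of the start held 2 to 4 each. Over the genome, bins of 10 kb with at least 1 interval had a median of 2 and a 95th percentile of 5, and 10 of the 11 bins that lie wholly within Hmga2 reached 5. High density went on past the 3' end, with 7 midpoints at 120 to 130 kb from the start, and dropped to 3 in the next bin. The longest stretch without an interval over the gene was 4466 bp, and the median spacing was 760.5 bp, against 3034 bp between neighbouring intervals of the whole set.

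**Figure D2:**
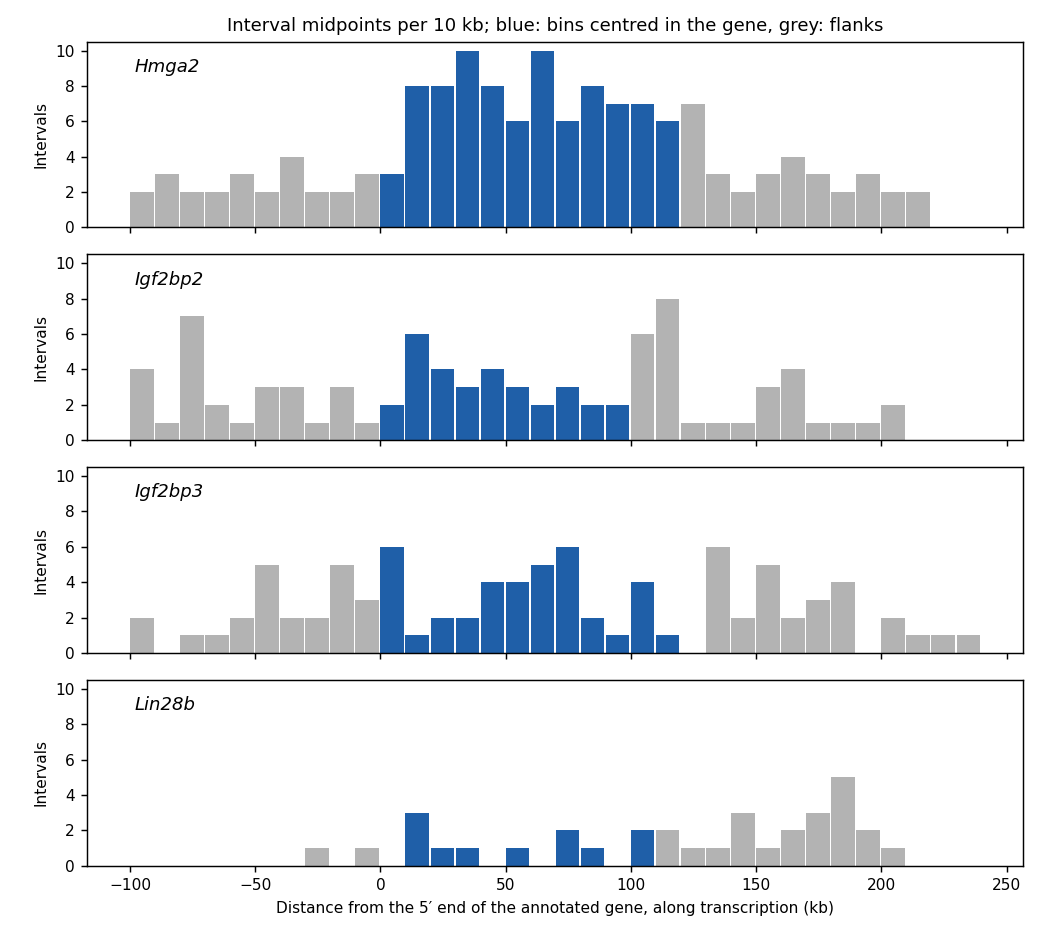
Number of interval midpoints per bin of 10 kb (y axis) against distance from the 5' end of the annotated gene along transcription (x axis, kb) for the 4 members longer than 100 kb, with bins centred in the gene in blue and flanks in grey. Hmga2 reaches 6 to 10 intervals per bin over the gene after its first bin, Igf2bp2 and Igf2bp3 stay at or below 6 over theirs, and Lin28b at or below 3.

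The intervals over Hmga2 were somewhat narrower than those of the whole set. Over the gene the median width was 288 bp (quartiles 171 and 483 bp), against 336 bp over the whole set, and 50.6% were under 300 bp, against 45.2% of all intervals. Medians over the gene were lower at Igf2bp1 (253 bp), Igf2bp3 (279 bp) and Lin28a (285.5 bp). They were higher at Lin28b (351 bp), Igf2bp2 (355 bp) and Hmga1 (625.5 bp). Intervals of at least 1000 bp numbered 13 of 141 in the extended span and 6 of 85 over the gene, near the 8.71% of all intervals. They included the promoter (2201 bp) and 5 more inside the gene. Those 5 were centred 23.1, 47.3, 53.7, 76.0 and 110.2 kb downstream of the start. The widest near Hmga2, chr10:120356549-120359053 (2505 bp), lay beyond the 3' end, centred 118.7 kb from the start. Upstream, wide intervals were centred 39.8 kb (1321 bp), 76.1 kb (1859 bp) and 88.0 kb (1430 bp) before the start. Several non-coding genes lie inside Hmga2, and 30 of its 85 intervals overlapped an annotated lncRNA gene. Among these, 1700006J14Rik held 17 intervals, Gm51785 9, 9230105E05Rik 4 and Gm40783 3, and the miRNA gene Mir763 lay wholly within an interval. The count of 30 is to be read beside the length of these genes. Of the 115202 bp of Hmga2, 1700006J14Rik spans 22775 bp, with Gm40783 inside it, Gm51785 12189 bp and 9230105E05Rik 3271 bp. The count therefore does not set lncRNA genes apart from the rest of Hmga2. The gene table gives spans and not exons, so intervals were not assigned to exons, introns or UTRs.

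The Hmga2 promoter lay inside an interval of 2201 bp, chr10:120475758-120477958, which reached 1489 bp upstream of the RefSeq start site and 711 bp into the gene. The 250 bases before the start are shown (chr10:120476470-120476719, minus strand, RefSeq, GRCm38.p6) with CG dinucleotides in capitals, since promoters were also grouped by their CpG content.
Hmga2: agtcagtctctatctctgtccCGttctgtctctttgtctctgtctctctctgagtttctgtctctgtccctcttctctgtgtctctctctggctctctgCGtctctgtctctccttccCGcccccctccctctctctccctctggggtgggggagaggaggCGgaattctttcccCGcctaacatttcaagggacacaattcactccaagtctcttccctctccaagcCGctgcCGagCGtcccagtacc
The 300-base promoter window (250 bases before to 50 after the start) held 12 CG dinucleotides, with an observed to expected CpG ratio of 0.54, against medians of 7 and 0.384 over all RefSeq promoter windows. On the gene's strand, 70.8% of the printed bases were C or T, a share reached by 0.414% of the 32851 RefSeq promoter windows, a measure chosen after the sequence was read. The longest run of C and T alone was 23 bases. Igf2bp3, whose sequence is printed further below, had 68.0% C or T and a longer run of 35 bases.

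Hmga1, the shorter paralog, also had a wide promoter interval, in a span shared with 5 other coding genes. Hmga1 lies on the plus strand of chromosome 17, from 27556574 to 27563672 (gene ID 15361, 7.10 kb). The interval chr17:27555013-27557171 (2159 bp) covered both of its RefSeq promoter windows. The 4 intervals over Hmga1 covered 29.1% of the gene, close to the 29.0% of Hmga2, at 56.3 per 100 kb. Of the 44 flanking intervals, 26 lay over other protein-coding genes. The share of the flanks that those genes fill was not computed, so the count shows no preference for them. The widest of the span, 2776 bp at 27621289 to 27624064, lay at the upper end of Nudt3, a nucleotide hydrolase gene, and Nudt3 held 12 intervals. The CpG ratio at the first Hmga1 promoter was 0.98, with 40 CG dinucleotides in 300 bases, against 12 at Hmga2.

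The 3 Igf2bp genes each had wide or paired intervals at their upper end, in differing forms. Igf2bp2, on the minus strand of chromosome 16 from 22059009 to 22163299 (gene ID 319765), had 1 interval of 2314 bp at its start (chr16:22162148-22164461). This interval was the widest in its extended span and was centred 5 bp upstream of the start site. Igf2bp3, on the minus strand of chromosome 6 from 49085218 to 49215469 (gene ID 140488), had instead a row of narrower ones. Its start site lay in an interval of 529 bp (chr6:49214592-49215120), and another of 746 bp (49215237 to 49215982) followed 116 bp further upstream. Igf2bp1, on chromosome 11 from 95957163 to 96005944 (gene ID 140486), had an interval of 1882 bp over its upper end (chr11:96004323-96006204) and another of 1653 bp 169 bp beyond it. At the opposite end of all 3 genes no interval came within 1 kb.

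Along the gene, Igf2bp1 had the most intervals per 100 kb of the 3, a lead that was small by the share of sequence covered. Igf2bp1 held 24 intervals in 48.8 kb, or 49.2 per 100 kb, Igf2bp2 held 34 in 104.3 kb, or 32.6 per 100 kb, and Igf2bp3 held 39 in 130.3 kb, or 29.9 per 100 kb. Among protein-coding genes of 0.5 to 2 times their own length, 0.538% had a density over the gene at or above that of Igf2bp1, 9.47% at or above Igf2bp2 and 13.8% at or above Igf2bp3. The medians of those length classes were 18.9, 18.6 and 18.5 per 100 kb. Intervals covered 19.3% of Igf2bp1, close to the 17.4% of Igf2bp2, and less of Igf2bp3. The median width over the gene was 253 bp at Igf2bp1 and 355 bp at Igf2bp2, so the higher count at Igf2bp1 came with narrower intervals. Density with a minimum width of 300 bp was not computed for the Igf2bp genes. Of the 39 over Igf2bp3, 9 also overlapped Malsu1, which overlaps its 3' part, so they cannot be given to Igf2bp3 alone. Over the whole set, 8.71% of intervals were at least 1000 bp wide. Such wide intervals numbered 9 of 85 in the extended span of Igf2bp2, 7 of 57 at Igf2bp1 and 7 of 87 at Igf2bp3. Inside the gene they were 7 of 34, 2 of 24 and 2 of 39 in the same order. In Igf2bp2 the 6 besides the promoter were centred from 18.3 to 95.3 kb downstream of the start, and both of those in Igf2bp3 overlapped Malsu1.

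The surroundings of the Igf2bp genes held further clusters. Igf2bp2 and Igf2bp3 each have a Tra2 splicing factor gene upstream, Tra2b and Tra2a. Upstream of Igf2bp2, the bin from 80 to 70 kb before its 5' end held 7 midpoints and was 38.6% covered. Just past the 3' end of Igf2bp2, the bin from 110 to 120 kb along transcription held 8 midpoints, more than any bin over the gene. Most of these intervals lay over the neighbouring coding gene Senp2. Upstream of Igf2bp3, intervals of 1367 bp and 1239 bp were centred 26.0 and 48.8 kb before the start, the second of them over Tra2a. The flanks held 25.5 intervals per 100 kb at Igf2bp2, 24.0 at Igf2bp3 and 16.5 at Igf2bp1, all below the density over the gene. The widest interval near Igf2bp1, 2136 bp at 95858225 to 95860360, lay in its lower flank over the lncRNA gene 4833417C18Rik and a tRNA gene.

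The Lin28 paralogs differed at the start site. Lin28b, on the minus strand of chromosome 10 from 45376617 to 45486314 (gene ID 380669), had an interval of 1606 bp over its RefSeq start (chr10:45468988-45470593), the widest of its extended span. A second of nearly equal width, 1605 bp (45485551 to 45487155), covered the upper end of the annotated gene, centred 16.2 kb upstream of that start. Lin28a, on the minus strand of chromosome 4 from 134003330 to 134019196 (gene ID 83557), had no interval over its 300-base promoter window. The nearest to its start were 386 bp wide, ending 326 bp downstream (chr4:134018105-134018490), and 243 bp wide beyond the upper gene end (134019731 to 134019973). None of the 4 intervals over Lin28a reached 1000 bp, and the widest of its extended span (1953 bp, 133967060 to 133969012) lay over the upper end of Hmgn2, next to Dhdds.

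The 250 bases before each Lin28 start are printed because they contrast the covered with the uncovered promoter. CG dinucleotides are in capitals for Lin28a (chr4:134018817-134019066, minus strand). The motif CACGTG is in capitals for Lin28b (chr10:45470202-45470451, minus strand) and for Igf2bp3 (chr6:49214955-49215204, minus strand). All are RefSeq sequences of GRCm38.p6.
Lin28a: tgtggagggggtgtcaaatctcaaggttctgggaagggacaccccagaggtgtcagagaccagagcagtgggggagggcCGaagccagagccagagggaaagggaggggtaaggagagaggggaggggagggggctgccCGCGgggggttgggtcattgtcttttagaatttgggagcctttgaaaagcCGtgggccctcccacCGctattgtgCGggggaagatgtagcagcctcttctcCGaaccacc
Lin28b: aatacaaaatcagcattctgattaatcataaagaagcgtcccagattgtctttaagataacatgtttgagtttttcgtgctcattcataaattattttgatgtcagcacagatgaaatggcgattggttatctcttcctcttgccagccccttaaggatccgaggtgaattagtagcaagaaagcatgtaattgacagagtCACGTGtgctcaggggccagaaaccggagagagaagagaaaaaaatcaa
Igf2bp3: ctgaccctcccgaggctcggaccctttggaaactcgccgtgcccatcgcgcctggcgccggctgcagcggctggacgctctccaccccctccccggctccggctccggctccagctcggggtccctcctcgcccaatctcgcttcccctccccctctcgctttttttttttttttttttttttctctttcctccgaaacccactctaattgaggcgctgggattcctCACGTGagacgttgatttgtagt
The Lin28a window held 10 CG dinucleotides at a GC content of 63.3%, and the Lin28b window held 8 at 39.0%. Because of the lower GC content, the observed to expected CpG ratio was 0.71 at Lin28b, against 0.35 at Lin28a.

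Along the gene, Lin28b was sparse. Its 12 intervals over 109.7 kb gave 10.9 per 100 kb, and 77.3% of the 3664 genes in its length class had at least that density. Lin28a had 4 intervals in 15.9 kb, or 25.2 per 100 kb, a density that 36.0% of its class reached. The flanks of Lin28b were unequal, with 21 intervals below the gene and 1 above it, and 15 of these 22 lay over other coding genes. Here too, the share of the flanks that other coding genes fill was not computed. Popdc3 and Bves, a pair of membrane protein genes of heart and skeletal muscle, lie in the lower flank and held 9 and 6 intervals. Above Lin28b, no interval was listed from 45512013 to 45632798 (120.8 kb), a stretch that runs past the extended span and holds the RefSeq start of the ubiquitin ligase gene Hace1. The longest such stretch at Igf2bp1 (43.3 kb, from 96065103) holds all of Atp5g1, an ATP synthase subunit gene used in most cells. At Hmga2 the longest was 9.56 kb, at Igf2bp2 15.1 kb, at Hmga1 16.8 kb, at Lin28a 17.4 kb and at Igf2bp3 24.1 kb. A stretch without intervals says only that none is listed in the table used here, and does not show closed chromatin. Rows of the table may have been left out of the copy used here, above Lin28b and around Atp5g1 among other places. The density of Lin28b, its place as the lowest of the 7, its flank counts and the flank values of Igf2bp1 hold only for the intervals listed. The same limit applies to the ranks and to the medians and shares over all protein-coding genes.

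At the promoters as a group, 5 of the 6 genes with a RefSeq promoter window had an interval over it, against 67.0% of the 17491 protein-coding genes with such a window. Igf2bp1 has no promoter entry in the table, and with its gene end counted 6 of 7 had one. With a minimum width of 300 bp this was 6 of 7 (64.9% of genes with an entry), and with 600 bp 5 of 7 (61.4%), without Igf2bp3. These counts are not strictly like the percentages, since Igf2bp1 was counted within 1 kb of a gene end, a wider target than a promoter window. Within 1 kb of either gene end, all 7 had an interval, against 74.7% of all protein-coding genes. A share this common does not set the 7 genes apart. Intervals of at least 2000 bp at a promoter window were less common, found at 6.33% of genes with an entry and at 3 of the 6, Hmga2 (2201 bp), Hmga1 (2159 bp) and Igf2bp2 (2314 bp). That width was chosen after the values were seen.

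CpG content and the presence of an interval went together over all promoters. Of promoter windows with a CpG ratio under 0.25, 21.1% held an interval, of those from 0.25 to 0.5 45.6%, from 0.5 to 0.75 83.8%, and from 0.75 95.2%. Igf2bp2 (1.09), Igf2bp3 (0.98) and Hmga1 (0.98) fell in the highest class, Lin28b (0.71) and Hmga2 (0.54) in the next and Lin28a (0.35) in the class where 45.6% held one. Class medians of width were taken over the windows that held an interval. The promoter interval was wider than the class median of 1246 bp at both Hmga2 (2201 bp) and Lin28b (1606 bp). It was also wider than the 1415 bp of the highest class at Hmga1 (2159 bp) and Igf2bp2 (2314 bp). The 529 bp at Igf2bp3 are not set against a class median, since the interval of 746 bp lies 116 bp away and the width depends on whether such neighbours are joined.

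**Figure D3:**
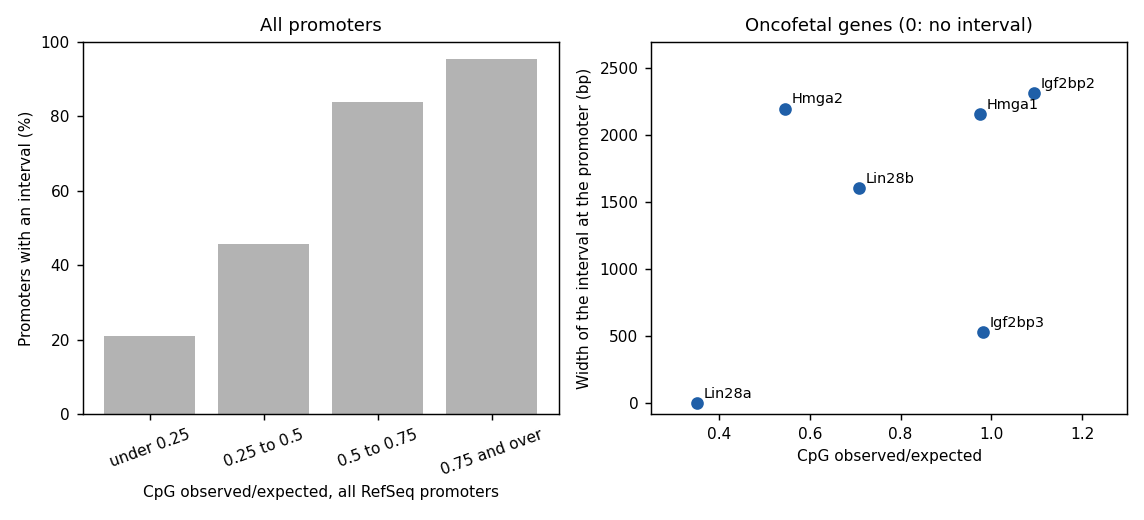
Left, share of all RefSeq promoter windows that overlap an interval (y axis, %) in 4 classes of observed to expected CpG ratio (x axis). Right, width of the interval at the promoter (y axis, bp, 0 for none) against the CpG ratio (x axis) for the 6 genes with a promoter entry, where Hmga2 combines a ratio of 0.54 with 2201 bp and Igf2bp3 a ratio of 0.98 with 529 bp, a width that leaves out the interval of 746 bp that lies 116 bp away.

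Short motifs were searched in the 250 bases before each start, on both strands. CANNTG, the E-box core that Myf6 and other basic helix-loop-helix factors bind, was found at Hmga1 (2 matches at the first start), Lin28b (2) and Igf2bp3 (1) and not at Hmga2, Igf2bp2 or Lin28a, against 66.2% of all promoters. CACGTG, the E-box form bound by Myc and contained in CANNTG, was found once at Lin28b and once at Igf2bp3, beginning 49 and 23 bases before the start, against 6.02% of all promoters. GGGCGG, bound by Sp1, was found 3 times at the first Hmga1 start, 2 times at Igf2bp2 and once at Hmga2, against 32.7%. TATAAA (12.4% of all promoters) and TGANTCA, the AP-1 motif (6.75%), had no match at any of the 6 genes. A match describes letters in the window and does not show binding.

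Genes around the let-7 axis were described from lists chosen with earlier results of these data known. Of the 13 genes of microRNA processing and let-7 turnover, the 12 with a promoter entry all had an interval over it, against 67.0% of all genes with an entry. The median density of the 13 was 19.5 per 100 kb, against 17.8 over all genes. Tut7 (28.3), which adds uridines to let-7 precursors, Ago2 (27.5), the slicing Argonaute, and Tarbp2 (26.5), a Dicer partner, led that list. Of 20 let-7 targets and partners, 11 of the 12 with an entry had a promoter interval, and the median density was 24.2. Igf1r (33.7), the IGF receptor gene, Cdc34 (30.1), a ubiquitin-conjugating enzyme gene, and Arid3a (29.0), which encodes an AT-rich DNA-binding factor, were the densest, and Hic2 was the gene without one. Of 7 genes for other HMG proteins, all 6 with an entry had a promoter interval at a median density of 19.2, led by Hmgb1 (27.6), Hmgb2 (23.0) and Hmgn1 (20.4). Of 10 other RNA-binding protein genes, all 8 with an entry had one at a median of 20.0, led by Pcbp2 (30.0), Ybx1 (25.6) and Pcbp1 (22.3). The promoter counts of all 4 lists are to be read beside the 67.0% of all genes, and the median density of each lay above the 17.8 of all genes. The interval at the promoter had a median width of 1882.5 bp over the 6 oncofetal genes with an entry, with 0 for Lin28a, against 990 bp over all genes with an entry counted the same way. The related lists had medians of 1783 bp (other RNA-binding protein genes), 1707 bp (other HMG genes), 1534 bp (microRNA processing) and 1281 bp (let-7 targets and partners).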

How the data were processed

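The submitters' processing notes name GRCm38.p6 and the tools BWA, MACS2 and DESeq2, with no version and no role. The authors annotated consensus peaks with HOMER's annotatePeaks, a GRCm38.p6 sequence and GENCODE vM23, per the file headers. For peak calling, joining and filters, settings are not stated in the labels or headers. In the deposited table, the peak score is 0 in every row and was not used. Depth per library is unknown.

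Gene spans, promoter windows and microRNAs came from RefSeq tables of GRCm38.p6. Intervals were counted by an overlap of at least 1 bp, and densities were compared with all 21883 protein-coding genes. The text names all 7 genes, in each list the 3 densest genes and up to 3 without a promoter interval, the 5 genes of 0.5 to 2 times the length of Hmga2 nearest to it in density, and genes in the extended spans. The genes and lists were chosen with earlier results of these data known. Python 3.11.15, numpy 2.4.6, pandas 2.3.3 and matplotlib 3.10.9 were used, and the counting was tested on simulated intervals. No test was run, since the table has no replicates.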

Additional observations from a re-analysis of the deposited data

How the results depend on the processing

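The total of 493 intervals became 780 with 200 kb on both sides and 263 with a minimum width of 300 bp. The 3 other alternatives (50 kb, midpoints, joining intervals closer than 200 bp) stayed within 1.5 times. Hmga2 had 23.2 intervals per 100 kb with the minimum width and 73.8 over the gene body only. By density Hmga2 ranked 1, and its rank was 5 with 50 kb, 8 with 200 kb, 43 with the minimum width and 58 by the share of sequence covered. Over the gene body alone, among genes of at least 20 kb, the rank was 1. Chosen after seeing the data, joining intervals gave rank 2 for the extended span, and the minimum width gave rank 2 over the gene among genes of similar length, where joining and the share covered gave 1. Promoter intervals were counted at 5 to 7 genes under 3 alternatives, against 6. No paired analysis was possible because the table holds no value per library; comparisons between groups and leaving out libraries were not run for the same reason. Read depth sets which narrow intervals are called, and it is unknown here.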
